A study of Mus musculus with 6 samples.

Results

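The imprinted genes Cdkn1c, Rasgrf1 and Nap1l5 were taken from the authors' deposited lists of cytosines that differ between LSK cells without Tet1 and wild-type LSK cells. All rows of both lists whose nearest gene carries 1 of these 3 names were used. They hold 13 of the 6756 listed sites, 9 for Cdkn1c, 2 for Rasgrf1 and 2 for Nap1l5, and 3 of the 3344 genes named in the lists. Each listed site is 1 cytosine of 1 strand, and its value is a difference in methylation in percentage points, given here as Tet1 knockout (KO) minus wild type (WT). The genes were chosen by these same listed differences, from lists that begin at 25 percentage points, so their number, direction and size are descriptions and were not tested.

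The study measured cytosine methylation by enhanced reduced representation bisulfite sequencing in 3 Tet1 KO samples and 3 WT samples. LSK cells are the lineage-negative, Sca-1-positive, Kit-positive bone marrow fraction that contains haematopoietic stem and progenitor cells. They were sorted from mice 6 months old, of a strain the labels write as CD57BL/6. The labels call the mutant mice Tet1 KO, with no allele, promoter or sex, and do not state if each sample is a different mouse. No expression data were used here, so neither the loss of Tet1 nor the identity of the sorted cells could be checked. The lists give 1 difference per site over all 6 samples. No level, coverage or p-value per sample was used, so the depth is unknown and no spread between replicates can be set beside any difference. Bisulfite treatment reads 5-methylcytosine and 5-hydroxymethylcytosine as the same signal, and the lists do not separate the parental copies of a gene.

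Imprinted genes are expressed mainly from the copy inherited from a given parent, and differential methylation laid down in the germ line, or acquired later on the silent copy, marks the parental origin. Tet1 encodes a dioxygenase that oxidises 5-methylcytosine, a step in its removal. Cdkn1c encodes p57, a cyclin-dependent kinase inhibitor expressed from the maternal copy, which holds haematopoietic stem cells in quiescence. Rasgrf1 encodes an exchange factor that loads Ras with GTP. In the mouse it is expressed from the paternal copy, and a domain upstream of its promoter is methylated on that copy. Nap1l5 encodes a protein of the nucleosome assembly family. It is an intronless gene within an intron of Herc3 and is expressed from the paternal copy.

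The RefSeq promoter sequence is shown for 2 of the genes, Rasgrf1 and Nap1l5, because none was at hand for Cdkn1c. Both have a listed cytosine within 683 bp of the start, and the letters show how many CpGs the start region carries. Each line holds the 250 bases before the transcription start, 5′ to 3′ on the gene's strand, from RefSeq (GRCm38.p6), with every CG dinucleotide in capitals. Rasgrf1 is at chr9:89909525-89909774, forward strand, and Nap1l5 at chr6:58907127-58907376, reverse strand.
Rasgrf1: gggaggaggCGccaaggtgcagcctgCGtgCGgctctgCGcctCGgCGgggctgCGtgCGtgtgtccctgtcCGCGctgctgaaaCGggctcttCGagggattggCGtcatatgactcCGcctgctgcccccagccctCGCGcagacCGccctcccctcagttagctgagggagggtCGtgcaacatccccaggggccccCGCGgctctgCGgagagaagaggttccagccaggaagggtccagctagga
Nap1l5: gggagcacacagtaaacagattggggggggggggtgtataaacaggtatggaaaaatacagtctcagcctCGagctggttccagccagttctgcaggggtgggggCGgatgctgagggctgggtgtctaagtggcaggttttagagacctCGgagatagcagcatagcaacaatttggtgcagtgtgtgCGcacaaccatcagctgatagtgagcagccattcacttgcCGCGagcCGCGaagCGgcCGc
The Rasgrf1 stretch holds 21 CG dinucleotides at 69.2% G and C, and 16.3% of the 32851 RefSeq promoter stretches of this length hold at least as many. The Nap1l5 stretch holds 10 at 56.8% G and C and 37.8% of all stretches reach that number. The median over all stretches was 6. CG reads the same on both strands, so 1 search covers both. By the distances in the files, none of the 13 listed cytosines falls within these stretches: the Rasgrf1 promoter site lies farther upstream and the Nap1l5 sites lie downstream of the start.

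All 13 sites were listed as more methylated in the Tet1 KO, and none of the 3 genes had a hypomethylated site. Of all listed sites 92.8% are hypermethylated, and of all genes in the lists 87.0% have hypermethylated sites alone, so the shared direction is that of the lists as a whole. The 13 differences ran from 25.2 to 58.6 percentage points with a mean of 39.6 and a median of 36.9, against a median of 41.1 percentage points over all 6270 hypermethylated sites. At or above 40 percentage points were 6 of the 13 sites (46.2%), against 3350 of the 6270 hypermethylated sites. Over all listed sites, in absolute difference and of either sign, the share was 51.7%. The highest site of Cdkn1c and the higher site of Rasgrf1 lay above 86.1% and 83.1% of all hypermethylated sites.

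**Figure D1:**
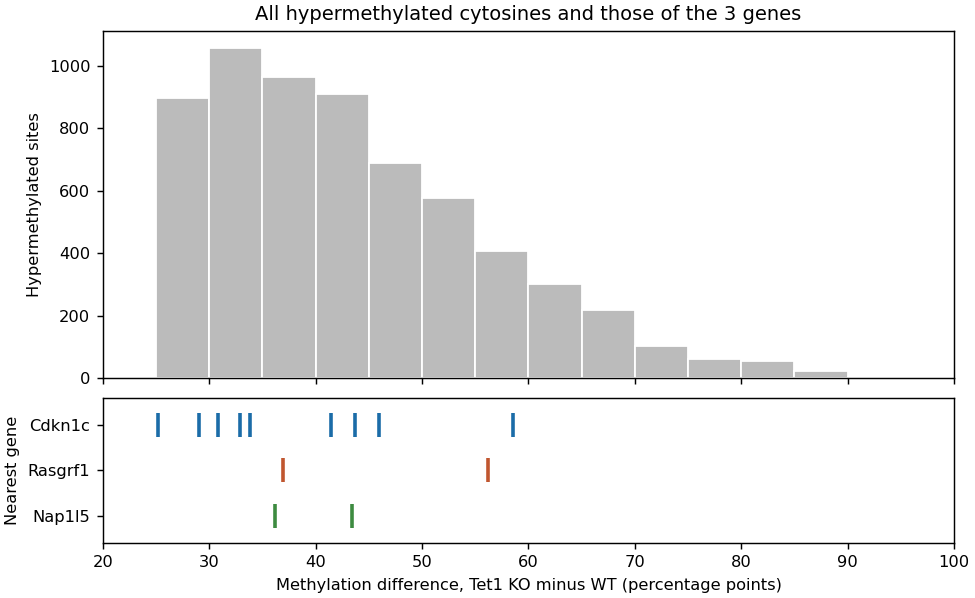
Upper panel, number of hypermethylated sites in the authors' lists in bins of 5 percentage points (x axis, methylation difference, Tet1 KO minus WT). Lower panel, each of the 13 sites of Cdkn1c, Rasgrf1 and Nap1l5 as a vertical mark on the same axis. The marks lie between 25.2 and 58.6 percentage points, and the list as a whole reaches 97.6.

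Cdkn1c (Entrez 12577, chromosome 7) was nearest to 9 listed cytosines, all intergenic, and 8 of them formed a cluster downstream of the gene. At least 9 sites are held by 1.47% of the genes in the lists (49 of 3344). The transcription start implied by the distances in the files is position 150646955 on mm9, the build of the files. The gene is read towards lower coordinates and spans 2721 bp in RefSeq. The cluster ran from 150631026 to 150631456, 430 bp, at 15499 to 15929 bp downstream of the start, beyond the end of the gene. Of all 4237 regions made by joining sites with equal sign and under 1000 bp between neighbours, 1.01% hold at least 8 sites.

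Within the Cdkn1c cluster the site with the highest difference lay on the reverse strand, near the end with the lower coordinates. On the reverse strand, the site at 150631026 differed by 41.5 percentage points and the site at 150631070 by 58.6 percentage points. On the forward strand, the sites at 150631171, 150631176 and 150631193 differed by 30.8, 32.9 and 33.9 percentage points, and the site at 150631221 by 45.9. The last pair of the cluster, at 150631442 and 150631456, differed by 29.0 and 25.2 percentage points, which places the final site 0.16 percentage points above the limit of the list. The 2 reverse-strand sites averaged 50.0 percentage points and the 6 forward-strand sites 33.0 percentage points, and 1 forward-strand site lay above the lower of the reverse-strand sites. Strand and position changed together in the cluster and cannot be told apart.

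**Figure D2:**
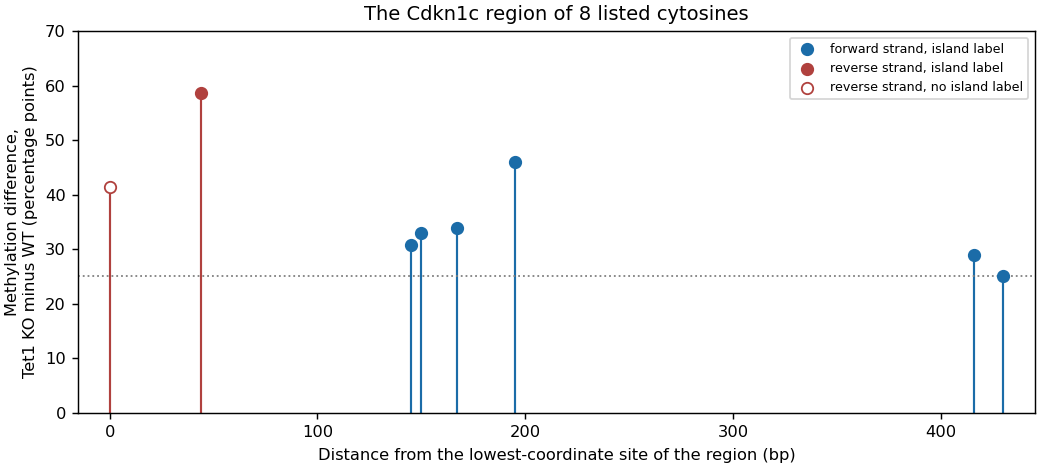
Methylation difference (y axis, Tet1 KO minus WT, percentage points) of the 8 clustered Cdkn1c sites against the distance in bp from the site with the lowest coordinate (x axis). Blue marks the forward and red the reverse strand, filled points carry a CpG island label, and the dotted line is the 25 percentage points at which the lists begin. The 2 reverse-strand sites stand at 41.5 and 58.6 percentage points, and the 6 forward-strand sites at 25.2 to 45.9.

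The 8 clustered cytosines are not 8 independent measurements where they share reads. The reads were 50 bases long, so listed cytosines on the same strand under 50 bp apart can lie on the same reads. Neighbours on the same strand up to 50 bp apart were joined. The cluster then falls into 3 stretches of 2, 4 and 2 sites, with means of 50.0, 35.9 and 27.1 percentage points from low to high coordinates. The end sites of the stretch of 4 lie 50 bp apart and cannot share a read. Adjacent sites of a stretch differed by 0.94 to 17.1 percentage points, and the widest gap was that between the 2 reverse-strand sites. Over all 1848 such neighbouring pairs in the lists the median gap was 7.64 percentage points, and over the 6 pairs of the 3 genes it was 5.56. No CpG of the 3 genes was listed on both strands. The lists as a whole hold 57 such CpGs, whose strands differed by a median of 8.29 percentage points.

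The files give a CpG island label to 7 of the 8 clustered Cdkn1c sites, all but the one at 150631026. Island labels occur only on intronic and intergenic sites. Among those, 7 of the 10 sites of the 3 genes carried one, all 7 from this cluster, against 6.22% of the 4617 intronic and intergenic sites in the lists. The 7 sites all lie in the 430 bp cluster, so this count describes 1 locus.

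The ninth Cdkn1c site lay on the other side of the gene, 3159 bp upstream of the start at position 150650114, on the reverse strand and outside any island label. It differed by 43.7 percentage points, above 6 of the 8 clustered sites. No listed site fell in the promoter, the exons or the introns of Cdkn1c. The 9 sites together had a mean difference of 37.9 percentage points with an SD of 10.4 over sites, which is not a replicate error.

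The chromosome 7 neighbourhood of Cdkn1c is a domain of imprinted genes controlled from the start of Kcnq1ot1, a paternally expressed long non-coding RNA within Kcnq1. Within 500000 bp of the Cdkn1c sites the lists held 3 other sites, all hypermethylated, as were 92.8% of all listed sites. Kcnq1, a potassium channel gene, had 1 promoter site at 150292988, 171 bp upstream of its start, with a difference of 46.0 percentage points. Tssc4 had 1 site in exon 3 of 3 at 150256127, with 49.0 percentage points. The third was an intronic LINE repeat site at 150898796 whose nearest start is that of Tnfrsf23, with 36.1 percentage points. No site was listed for Kcnq1ot1, or for Slc22a18, Phlda2 and Nap1l4, the imprinted neighbours on the upstream side. A gene with no listed cytosine may have had none read, or none past the limit of the lists.

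Rasgrf1 (Entrez 19417, chromosome 9) had 2 listed cytosines, both on the forward strand and both upstream of the start at position 89804613. The distal site, at 89772915, lay 31698 bp upstream in intergenic sequence and differed by 56.2 percentage points, above 83.1% of all hypermethylated sites. The proximal site, at 89803930, lay 683 bp upstream in the annotated promoter of transcript NM_011245 and differed by 36.9 percentage points, above 37.0% of them. The 2 sites are 31015 bp apart and cannot share reads. The files do not annotate imprinting control regions, so whether the distal site falls in the methylated domain upstream of Rasgrf1 was not tested. No site of another gene was listed within 500000 bp, and the nearest ones lay 1550137 bp away towards lower coordinates, at Nt5e, and 628830 bp away on the other side, at Tbc1d2b.

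Nap1l5 (Entrez 58243, chromosome 6) had 2 listed cytosines 35 bp apart, both on the reverse strand and both in its only exon (NM_021432, exon 1 of 1). The site at 58856763 lay 357 bp downstream of the start and differed by 36.2 percentage points. The site at 58856728 lay 392 bp downstream and differed by 43.4 percentage points. The start implied by the files is position 58857120. The gap of 7.24 percentage points is close to the median of neighbouring pairs, and the 2 cytosines can lie on the same reads. No site was listed for the host gene Herc3, and the nearest site of another gene was 3793547 bp away, at Crhr2. Nap1l5 is the only 1 of the 3 genes with listed cytosines inside its transcribed sequence.

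**Figure D3:**
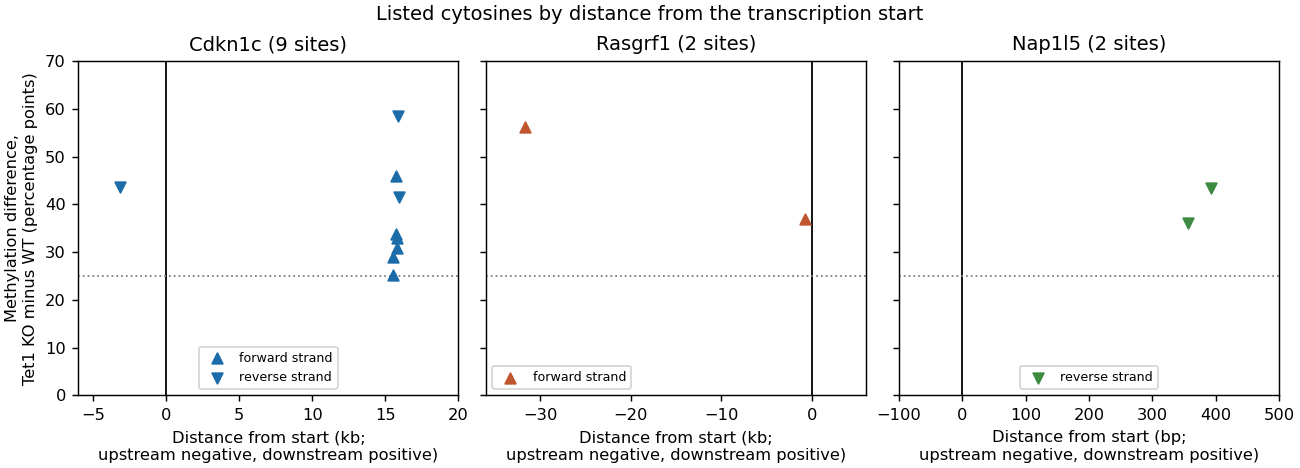
Methylation difference (y axis, Tet1 KO minus WT, percentage points) of each listed cytosine against its distance from the transcription start (x axis, upstream negative; kb for Cdkn1c and Rasgrf1, bp for Nap1l5). Triangles point up for the forward and down for the reverse strand, the vertical line is the start, and the dotted line marks 25 percentage points. Cdkn1c has 8 sites 15499 to 15929 bp downstream and 1 upstream, Rasgrf1 has sites at 31698 and 683 bp upstream, and Nap1l5 has both sites within 392 bp downstream.

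The 3 genes thus differed in where their sites lay. Intergenic sites made up 10 of the 13 (76.9%), against 36.7% of all listed sites, and 9 of those 10 were nearest to Cdkn1c. By mean listed difference the order was Rasgrf1 with 46.5, Nap1l5 with 39.8 and Cdkn1c with 37.9 percentage points, with SDs over sites of 13.6, 5.12 and 10.4. The gaps between these means are smaller than the spread over the sites of Rasgrf1, and the ranges of the 3 genes overlap. At least 2 sites are held by 41.8% of the genes in the lists, so the number of sites at Rasgrf1 and Nap1l5 is an ordinary one.

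**Figure D4:**
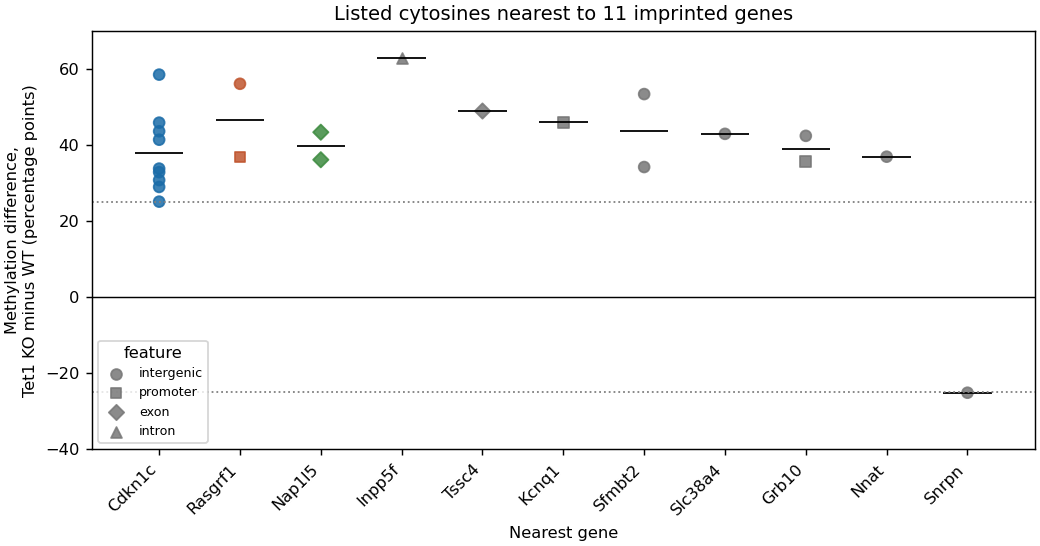
Methylation difference of every listed cytosine (y axis, Tet1 KO minus WT, percentage points) for the 11 imprinted genes nearest to a listed site (x axis). Marker shapes give the annotated feature, colours mark Cdkn1c, Rasgrf1 and Nap1l5, horizontal bars are means over sites, and the dotted lines are at 25 percentage points in either direction. All genes but Snrpn lie above 0, and Cdkn1c holds 9 of the 23 sites.

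Among 66 imprinted genes of the mouse in a list that contains the 3 genes, 11 appeared in the lists, and 10 of these had hypermethylated sites alone. The share with hypermethylated sites alone over all genes in the lists is the 87.0% given above. Of the 55 protein-coding imprinted genes other than the 3, 8 were listed (14.5%), against 13.7% of the 21900 protein-coding genes of the RefSeq table. The share of the imprinted genes was thus close to that of protein-coding genes in general, with the number of cytosines read per gene unknown. The 23 sites of the 11 genes had a median of 41.5 percentage points.

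The other 8 imprinted genes had 1 or 2 sites each. Inpp5f, a phosphoinositide phosphatase gene, had a single intronic site, 706 bp downstream of its start, with the highest difference of the 23 at 63.0 percentage points. Sfmbt2, a Polycomb group gene, had 2 intergenic sites upstream of its start, with 34.3 percentage points at 81902 bp and 53.5 percentage points at 2122 bp. Grb10, which encodes a growth factor receptor adaptor, had a promoter site with 35.7 percentage points at 428 bp upstream and an intergenic site with 42.5 percentage points at 1337 bp upstream. The amino acid transporter gene Slc38a4 had 1 intergenic site with 43.0 percentage points, 102440 bp downstream of its start. The neuronal gene Nnat had 1 intergenic site with 37.0 percentage points, 34427 bp upstream of its start. Kcnq1 and Tssc4 are described with the chromosome 7 domain. Snrpn, which encodes a splicing protein, was the exception in direction, with 1 hypomethylated site of -25.1 percentage points, 360781 bp upstream of its start. Within 5000 bp of a start lay 10 of the 23 sites.

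Relatives of the 3 proteins were looked up in short lists that also hold the 3 genes, and none of the other genes in them was nearest to a listed site. Of 7 cyclin-dependent kinase inhibitor genes, among them Cdkn1a, Cdkn1b and Cdkn2a, Cdkn1c alone was nearest to a listed site. Of 8 genes for Ras exchange factors, including Rasgrf2, Sos1 and Rasgrp1, it was Rasgrf1 alone. Of 7 nucleosome assembly genes, including Nap1l1 and Nap1l4, it was Nap1l5 alone. Each list holds a gene that was chosen because it was listed, so 1 listed gene per list was fixed beforehand. The shares of 14.3%, 12.5% and 14.3% thus follow from the lengths of the lists. They cannot be compared with the 13.7% given above for protein-coding genes as a whole.

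Genes with the most similar listing were sought among those with the same numbers of hypermethylated and hypomethylated sites and the same commonest feature. Genes of the imprinted list and of the short lists were left out. Similarity was the gap between mean listed differences, since no values per sample were used. For Cdkn1c there were 4 such genes. The closest were Gjb5, a connexin gene, with a mean of 37.6 percentage points, and Pitx1, a homeobox gene, with 38.9. Their 9 sites spanned 181459 bp in 3 regions and 149711 bp in 4 regions, and none carried an island label. The 9 sites of Cdkn1c spanned 19088 bp in 2 regions, with 8 of them within 430 bp. How the sites of Gjb5 and Pitx1 divide among their regions was not examined. Rasgrf1 has 1 intergenic and 1 promoter site, and this tie was resolved by alphabetical order in favour of intergenic. For Rasgrf1 there were then 234 candidates, led by 4932438H23Rik with 46.5 and Ascl5 with 46.7 percentage points. For Nap1l5 there were 84, led by Mon1b with 39.8 and 1300001I01Rik with 39.3 percentage points.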

How the data were processed

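DNA of LSK cells from 3 Tet1 KO and 3 WT samples was bisulfite-converted and sequenced in 50-base single-end reads, per the labels' protocols. The submitters' processing notes name Bismark and mm9, with no role or version. The authors deposited 2 lists of cytosines with a methylation difference in percentage points, whose absolute values begin at 25.0, and the distance in bp to the nearest start. Not given in the sources used here were the caller, coverage minimum, significance threshold and pooling of replicates. Per the labels, the groups are KO and WT, and the direction, KO minus WT, comes from the list names and signs, and no group means were at hand to check it.

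The position used is the one in the site names. The distances in the files place 121 listed sites within a RefSeq promoter window. Of these, 71.9% fell on a CG of the RefSeq sequence at the position used, and 0 at the position 1 bp higher. The distances are on mm9 and the sequences on GRCm38.p6, and starts that differ between them were not sought. Distances were turned to the gene's strand, since their sign follows the strand of the cytosine: afterwards 2303 of 2303 exonic and intronic sites of their nearest transcript lay downstream. Genes were matched by name and Entrez identifier to the RefSeq table (GRCm38.p6), which gave names, gene order, gene lengths and promoter sequences, and held 2 of the 3 promoters. Of the 66 imprinted genes, 65 were found there. Neighbouring sites with equal sign and under 1000 bp between them formed a region. The code for joining was checked on simulated clusters built to this rule, which does not test if the distance suits these data. Python 3.11.15, pandas 2.3.3 and numpy 2.4.6 were used. No test across sites was run.

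The 3 genes, the gene lists and the rules were chosen with earlier results of these data known. The text names every listed gene of the gene lists, the genes listed within 500000 bp of a site, the nearest listed genes and the 2 most similar genes for each of the 3.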

Additional observations from a re-analysis of the deposited data

How the results depend on the processing

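At 40 percentage points or more, Cdkn1c kept 4 sites, Rasgrf1 1 site in 1 region and Nap1l5 1 site. On the forward strand alone Nap1l5 had 0 sites and 7 imprinted genes were listed. With sites within 100000 bp of the start alone, 9 imprinted genes were listed. Joining within 200 bp split the Cdkn1c cluster of 8 sites between 150631221 and 150631442 and gave Cdkn1c 3 regions, while joining within 5000 bp left 2. Joining within 50 bp on the same strand, an alternative chosen after seeing the data, gave Cdkn1c 4 regions. In each case fewer sites, or another joining distance, enter by construction. The island share of 53.8% of the 13 sites was 33.3% at 40 percentage points or more and 75.0% on the forward strand. The labelled sites share a locus, so no interval is given. Joining the strands of 1 CpG could not change the values of the 3 genes, since none of their CpGs was listed on both strands. No paired analysis was possible because the lists hold 1 value per cytosine over all samples, and for the same reason no replicate or coverage minimum could be varied. With the depth unknown, the precision of a single difference cannot be given.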
